A study of Mus musculus with 14 samples.

Results

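Of the 14 RNA-seq libraries, 5 were compared: 2 of S9-SCA-1+ cells (replicates 2 and 3) and 3 of S9-JAG1+ cells (replicates 1 to 3), chosen by the population named in their labels. Both populations were sorted by FACS from pooled forelimb buds of *Sox9* IRES-EGFP mouse embryos at E10.5, so that all libraries carry the same reporter allele. Both gates kept living cells that were negative for the *Sox9* reporter (S9-) and for a cocktail of endothelial, blood, leukocyte and epithelial surface proteins. They differed in 2 surface proteins: S9-SCA-1+ cells were SCA-1 positive and JAG1 negative, and S9-JAG1+ cells were the reverse. The gates given in the labels of these libraries name no PDGFRα, while the study describes the SCA-1 and JAG1 sort as made on PDGFRα-positive cells. Of the other 9 libraries, 6 are from E10.5 and served for comparison: 3 of S9-Pαhi cells (reporter, JAG1 and SCA-1 negative, PDGFRα high) and 3 of S9+Pαhi cells (reporter positive, PDGFRα high). The 3 libraries of S9+COL2+ cells at E11.5 entered the fit alone. The question was which genes separate the 2 populations, in each direction, and what they have in common.

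Limb muscle arises from precursors that leave the somites, migrate into the bud under the control of the transcription factor PAX3 and the receptor tyrosine kinase MET, and switch on the myogenic factors *Myf5* and *Myod1* after arrival. The limb skeleton and connective tissue arise from the mesenchyme of the bud itself. In its distal and posterior part, Sonic hedgehog from the posterior margin and FGFs from the apical ectoderm keep progenitors proliferating and activate the last genes of the HoxA and HoxD clusters, which pattern the hand. JAG1 is a ligand of Notch receptors, and SCA-1, encoded by *Ly6a*, is a surface protein of many stem and progenitor cells.

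The libraries held 24421275 to 29162751 counts of reads in genes. Levels are given as CPM, read counts relative to the TMM-scaled library total, and 3 counts, the limit below which a gene cannot be told from absent, correspond to 0.105 to 0.128 CPM in these 5 libraries. Replicates were close: of 9757 genes above 3 log2 CPM, 17 differed by more than 1 log2 unit between the S9-SCA-1+ libraries, and 19, 42 and 52 between pairs of S9-JAG1+ libraries. The labels do not say whether replicates came from separate litters or sorts, so p-values measure a spread between libraries. That spread was estimated within populations over all 14 libraries of the fit, not from the 5 compared libraries alone. In bulk libraries, fewer cells of a kind and less RNA in each cell cannot be told apart.

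The genes of the gates followed the sort. *Ly6a* was low throughout, at 3.36 and 3.10 CPM in S9-SCA-1+ and 0.0856, 0.0838 and 0.119 CPM in S9-JAG1+ libraries. *Jag1* stood at 16.2 and 16 CPM in S9-SCA-1+ against 228, 297 and 364 CPM in S9-JAG1+ libraries. Since these proteins defined the populations, the levels of both genes are given as a description. The S9-SCA-1+ libraries held the muscle lineage genes *Pax3* and *Lbx1*, and the S9-JAG1+ libraries *Tfap2b*, a gene of the distal mesenchyme.

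The 2 populations were not equally low in *Pdgfra* and *Sox9*. *Pdgfra*, the receptor gene that marks limb mesenchyme, stood at 44.8 and 24.0 CPM in S9-SCA-1+ and at 246, 246 and 248 CPM in S9-JAG1+ libraries. The S9-JAG1+ level thus lay below the means of S9-Pαhi (442 CPM) and S9+Pαhi cells (718 CPM), but all 3 S9-JAG1+ libraries were above both S9-SCA-1+ libraries (log2 fold change, S9-SCA-1+ minus S9-JAG1+, -2.84 ± 0.20 SE, adjusted p = 2.78e-07 by edgeR's quasi-likelihood test, Benjamini-Hochberg adjusted over all tested genes, like every adjusted p that follows). *Sox9*, the cartilage master gene whose reporter was gated out, followed the same order, with 14.7 and 7.41 CPM in S9-SCA-1+ and 32.0, 36.7 and 35.6 CPM in S9-JAG1+ libraries (-1.66 ± 0.22, adjusted p = 7.12e-05). S9-Pαhi cells had 62.3 CPM and S9+Pαhi cells 437 CPM of *Sox9* on average.

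Of 15125 tested genes, 1729 (11.4%) were called between S9-SCA-1+ and S9-JAG1+ cells with an adjusted p no higher than 0.1 and a log2 fold change of 1.2 or more in size. Higher in S9-SCA-1+ cells were 987 genes (6.53%), and higher in S9-JAG1+ cells 742 (4.91%). In 977 and 731 of them, respectively, the libraries of the 2 populations did not overlap. This adds little to the calls, since the limit on the fold change makes overlap unlikely. A log2 fold change of at least 5 was reached by 144 of the genes, and one of -5 or below by 51. The genes called higher in S9-SCA-1+ cells made up 2.57% of the counts of these libraries and 0.485% of those of S9-JAG1+ cells, and the genes called higher in S9-JAG1+ cells made up 0.802% and 3.72%.

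For a large share of the genes the populations were alike. The 95% interval of the log2 fold change lay inside ±0.5 for 5536 of the 15125 tested genes (36.6%), which held 62.8% of the counts of S9-SCA-1+ and 63.2% of those of S9-JAG1+ libraries. A further 7860 genes (52%) were neither called nor alike. Their median level, 2.95 log2 CPM, lay below the 6.00 of the alike genes. The called genes lay lower still, at 0.77 log2 CPM. The adjusted p was at most 0.1 for 380 of the alike genes, a small but measured difference.

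**Figure D1:**
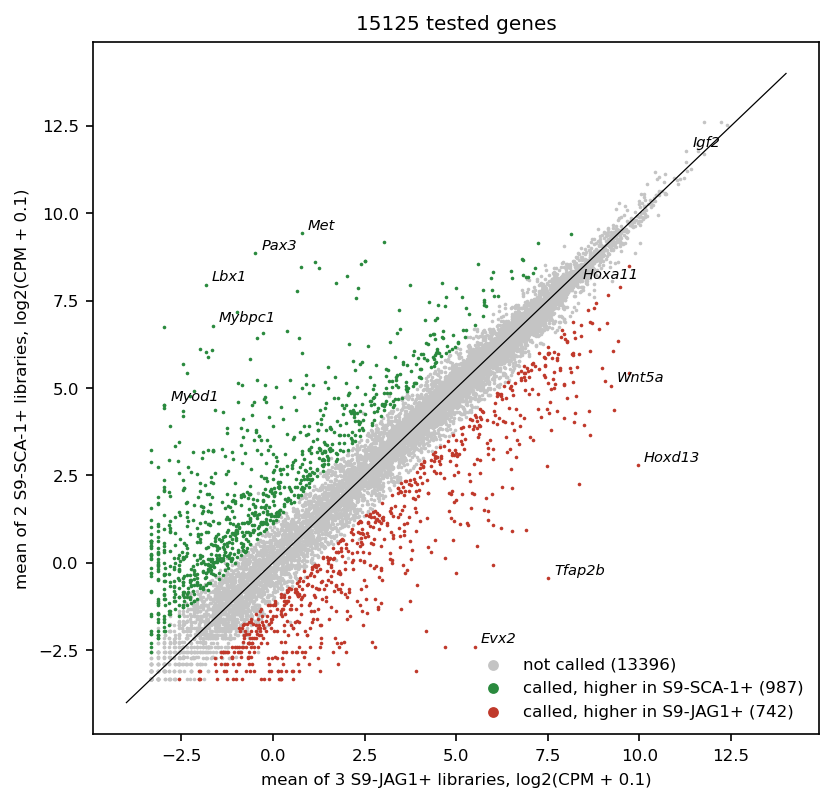
Mean level of each of the 15125 tested genes in the 3 S9-JAG1+ libraries (x axis) and the 2 S9-SCA-1+ libraries (y axis), both as log2(CPM + 0.1), with the line of equal level. The 987 genes called higher in S9-SCA-1+ cells (green) reach farther from the line than the 742 called higher in S9-JAG1+ cells (red), with *Lbx1*, *Pax3* and *Met* near the top left and *Evx2*, *Tfap2b* and *Hoxd13* at the bottom right.

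The transcription factors of the migrating muscle lineage led the S9-SCA-1+ side. *Lbx1* (chr19:45232684-45236841, mm10), a homeobox gene that limb muscle precursors need to migrate, had 263 and 233 CPM in S9-SCA-1+ and 0.214, 0.209 and 0.119 CPM in S9-JAG1+ libraries (log2 fold change 10.39 ± 0.32, adjusted p = 1.5e-13). *Pax3* (chr1:78101267-78197136), the paired box gene of the dermomyotome, had 428 and 498 CPM against 0.128, 0.335 and 1.39 CPM (9.51 ± 0.47, adjusted p = 5.7e-10). Of the S9-JAG1+ libraries, replicate 3 thus held the most *Pax3*, although still far below either S9-SCA-1+ library. The EYA genes, whose proteins are transcriptional coactivators upstream of the myogenic factors, were also among the leading genes. *Eya1* had 341 and 344 CPM against 2.87, 2.35 and 1.59 CPM, and *Eya2* 140 and 147 CPM against 0.514, 0.503 and 0.198 CPM. *Sim2*, a bHLH-PAS factor, had 363 and 339 CPM against 1.71, 2.30 and 0.793 CPM.

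Receptors of migration and growth were also among the leading genes. *Met* (chr6:17463349-17573980), the receptor of hepatocyte growth factor (HGF), had 719 and 660 CPM in S9-SCA-1+ and 1.5, 1.47 and 1.90 CPM in S9-JAG1+ libraries (8.72 ± 0.16, adjusted p = 1.5e-13). *Cxcr4*, the chemokine receptor of migrating precursors, had 81.0 and 91.9 CPM against 0.3, 0.419 and 1.19 CPM. The neurotrophic factor *Gdnf* and its co-receptor *Gfra1* were both on this side: *Gdnf* had 69.4 and 70.5 CPM against 0.128, 0.251 and 0.0793 CPM, and *Gfra1* 90.7 and 98.6 CPM against 0.899, 0.670 and 0.594 CPM. *Gdnf* was lowest in S9-JAG1+ cells, with 4.96 to 9.43 CPM in S9-Pαhi and 27.6 to 28.4 CPM in S9+Pαhi libraries. The protocadherin *Pcdh17*, the forkhead gene *Foxd2* and *Hpgd*, which inactivates prostaglandins, completed the leading genes together with *Myf5* and *Mybpc1*, with log2 fold changes of 7.21, 8.46, 8.23, 8.25 and 8.94.

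Of the 15 leading genes of the S9-JAG1+ side, 8 were in the list of distal and posterior limb genes. *Evx2* (chr2:74652989-74661520), a homeobox gene next to the HoxD cluster, had 25.3, 47.3 and 63.1 CPM in S9-JAG1+ and 0.0699 and 0.107 CPM in S9-SCA-1+ libraries (-8.92 ± 1.11, adjusted p = 5.37e-08). *Tfap2b* (chr1:19208908-19238845), a transcription factor of the AP-2 family, had 130, 183 and 231 CPM against 0.525 and 0.748 CPM (-8.14 ± 0.35, adjusted p = 2.92e-10). *Hoxd13* (chr2:74668225-74671603) had 799, 965 and 1211 CPM against 6.78 and 6.80 CPM, and *Hoxa13* (chr6:52258853-52260880) 101, 113 and 144 CPM against 1.82 and 1.78 CPM. S9-JAG1+ replicate 1 was the lowest and replicate 3 the highest library for these 4 genes, and the lowest was far above both S9-SCA-1+ libraries. *Hoxd12*, the long non-coding RNA *Hottip* beside *Hoxa13*, *Evx1* with its antisense transcript *Evx1os*, and the zinc finger gene *Sall3* followed, with log2 fold changes of -6.14, -8.11, -5.32, -5.20 and -5.01. The sources used here do not state whether strand was used in counting, so that *Evx1* and *Evx1os* cannot be told apart where they overlap.

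The other leading genes were of several kinds. *Edar*, the ectodysplasin receptor of skin appendages, had 10.7, 21.0 and 22.7 CPM against 0.175 and 0.142 CPM. The connexin gene *Gja3* had 56.1, 62.8 and 71.7 CPM against 0.490 and 1.21 CPM. *Pdzd2*, *Adamtsl2*, which encodes a protein of the extracellular matrix, and the cadherin *Cdh22* had log2 fold changes of -5.67, -5.44 and -5.20. *T* (Brachyury) is a gene of the tail bud and notochord, which the study also counts among genes of the posterior or distal limb bud mesenchyme. *T* had 5.35, 10.3 and 23.8 CPM in S9-JAG1+ replicates 1, 2 and 3, with 0.315 and 0.427 CPM in S9-SCA-1+ libraries (-5.13 ± 0.73, adjusted p = 7.9e-05). Its means were 0.201 CPM in S9-Pαhi and 0.282 CPM in S9+Pαhi cells. Its spread among the S9-JAG1+ libraries was wider than that of *Gja3*. In replicate 3, other genes of the posterior axis were high as well: *Tbx6* had 5.59 CPM against 1.41 and 0.880 CPM in replicates 1 and 2, and *Hoxc13* 5.31 CPM with no count in the other 4 libraries. Without replicate 3, *T* was still called, at a log2 fold change of -4.39.

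**Figure D2:**
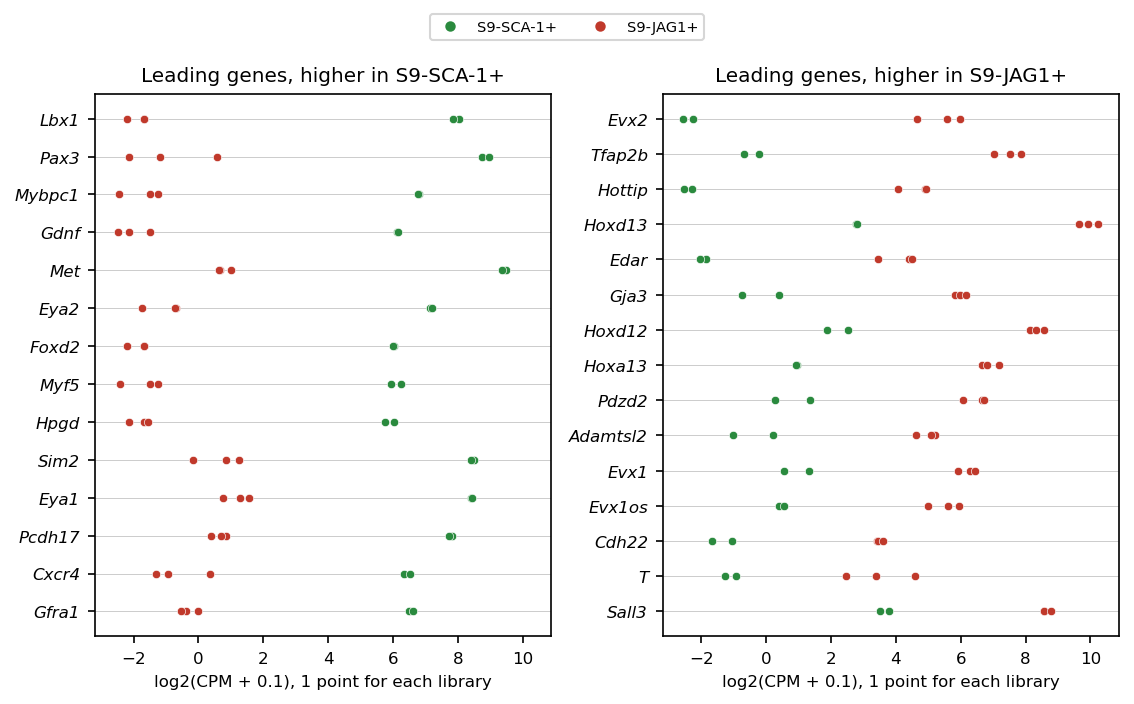
Level of the leading genes of each side (14 on the left, 15 on the right) in each library, as log2(CPM + 0.1). The 2 S9-SCA-1+ libraries (green) and the 3 S9-JAG1+ libraries (red) are apart for every gene, as the choice of the genes requires, and *T* has the widest spread among the S9-JAG1+ libraries on the right.

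Promoter sequences are shown for some of the leading genes whose RefSeq start lies at the edge of their gene model, as examples from either side. Each line gives the 250 bases before the start on the strand of the gene (RefSeq, GRCm38.p6), with *Cxcr4* at chr1:128592300-128592549 on the minus strand, *Hpgd* at chr8:56294302-56294551 on the plus strand, *Hoxd13* at chr2:74667975-74668224 on the plus strand and *Hoxa13* at chr6:52260881-52261130 on the minus strand. Capitals mark the E-box CAGCTG, which myogenic bHLH proteins can bind, or the AP-2 motif GCCNNNGGC.
Cxcr4: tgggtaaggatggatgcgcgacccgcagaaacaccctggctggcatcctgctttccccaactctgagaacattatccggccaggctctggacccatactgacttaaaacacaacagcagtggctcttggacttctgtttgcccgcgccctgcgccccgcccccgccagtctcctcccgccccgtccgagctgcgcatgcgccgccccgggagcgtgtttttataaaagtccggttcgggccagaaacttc
Hpgd: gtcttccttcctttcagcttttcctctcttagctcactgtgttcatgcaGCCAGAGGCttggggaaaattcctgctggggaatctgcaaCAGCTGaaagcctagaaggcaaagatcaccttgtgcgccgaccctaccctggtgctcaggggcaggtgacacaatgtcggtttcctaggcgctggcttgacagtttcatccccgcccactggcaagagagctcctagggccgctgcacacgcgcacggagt
Hoxd13: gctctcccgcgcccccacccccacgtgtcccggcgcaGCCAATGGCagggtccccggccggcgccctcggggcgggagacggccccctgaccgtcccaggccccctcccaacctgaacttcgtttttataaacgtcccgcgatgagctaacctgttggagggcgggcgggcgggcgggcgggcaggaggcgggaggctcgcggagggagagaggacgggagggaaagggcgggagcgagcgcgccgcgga
Hoxa13: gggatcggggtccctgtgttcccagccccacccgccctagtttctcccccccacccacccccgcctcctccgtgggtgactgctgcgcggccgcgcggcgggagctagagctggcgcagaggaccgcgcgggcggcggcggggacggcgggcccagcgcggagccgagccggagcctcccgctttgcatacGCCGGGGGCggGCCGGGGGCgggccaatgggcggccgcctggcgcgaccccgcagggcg
Both motifs are the same on either strand. *Hpgd* has 1 of each, *Hoxd13* 1 AP-2 motif, *Hoxa13* 2, and *Cxcr4* neither. Among leading S9-JAG1+ genes not shown, *Edar* and *Cdh22* had the AP-2 motif. The windows of *Evx2*, *Hottip*, *Hoxd12*, *Gja3*, *Pdzd2*, *Adamtsl2*, *Evx1*, *Evx1os* and *T* did not, while those of *Adamtsl2*, *Evx1os* and *T* had the E-box. Among leading S9-SCA-1+ genes not shown, *Mybpc1* and *Gfra1* had the E-box and *Pcdh17* the AP-2 motif. *Gdnf*, *Met*, *Foxd2* and *Myf5* had neither. Windows were found for 11740 of the 15125 tested genes, and not for *Lbx1*, *Pax3* and *Tfap2b*. The E-box was present in 16.7% of the windows of genes called higher in S9-SCA-1+ cells, 14.7% of those called higher in S9-JAG1+ cells, 12.4% of those of all tested genes and 13% of all 32841 windows. For the AP-2 motif the shares were 20.2%, 17.8%, 20.4% and 13.7%. The GLI motif TGGGTGGTC and the MEF3 motif TCAGGTTTC, searched on both strands, were in under 1% of the windows of each set. These shares describe letters near the start and were not tested.

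Among the 26 myogenic regulators of a list written for this comparison, 25 were tested, 19 were called higher in S9-SCA-1+ and 1 in S9-JAG1+ cells, against 6.53% and 4.91% of all tested genes, the shares beside which the counts of the other lists stand too. The median log2 fold change was 5.33, against 0.01 over all tested genes. The determination factors were present at different levels. *Myf5* had 61.6 and 75.3 CPM in S9-SCA-1+ and 0.0856, 0.251 and 0.317 CPM in S9-JAG1+ libraries, and *Msc* (musculin) 50.3 and 53.3 CPM against 0.0793 to 0.0856 CPM. *Myod1* had 22.0 and 23.4 CPM, from 1287 counts against 2 (ratio 823, 95% counting interval 227 to 6800). *Pax7* and *Myog*, which mark later precursors and differentiating muscle cells, were lower, with 6.71 and 6.55 CPM from 376 counts against 1, and with 3.50 and 4.66 CPM from 231 counts against 2. *Sim1* had 9.27 and 9.33 CPM and no count in the S9-JAG1+ libraries, which makes it at least 225-fold higher at a floor of 3 counts over the group.

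Other regulators differed less. *Meox2* had 182 and 208 CPM in S9-SCA-1+ and 28.3, 41.8 and 37.6 CPM in S9-JAG1+ libraries, between which lay the means of S9-Pαhi (76.3 CPM) and S9+Pαhi cells (86.6 CPM). *Dach1* had 166 and 149 CPM against 30.1, 37.2 and 47.3 CPM. *Mef2c*, which acts in differentiating muscle, was called in the other direction, with 1.99 and 2.21 CPM in S9-SCA-1+ and 5.22, 5.91 and 6.62 CPM in S9-JAG1+ libraries (-1.49 ± 0.25). *Mef2d* and *Zbtb18* were alike in both (-0.14 ± 0.09 and -0.09 ± 0.17).

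Of 16 genes of muscle precursor migration, all tested, 6 were called higher in S9-SCA-1+ and 3 in S9-JAG1+ cells (median 0.75). Besides *Met* and *Cxcr4*, the first group held the muscle cadherin *Cdh15* (33.1 and 34.9 CPM against 0.335 to 0.556 CPM), the FGF receptor *Fgfr4* (11.2 and 12.6 CPM against 0.3 to 0.587 CPM) and the scavenger receptor *Ackr3* with its ligand *Cxcl12*. *Hgf*, the ligand of MET, was low in both populations, at 3.81 and 2.78 CPM in S9-SCA-1+ and 9.42, 7.71 and 4.95 CPM in S9-JAG1+ libraries, against means of 31.9 CPM in S9-Pαhi and 48.6 CPM in S9+Pαhi cells. Higher in S9-JAG1+ cells were *Nrp1*, the ephrin receptor *Epha4* (532, 616 and 702 CPM against 70.4 and 62.8 CPM) and *Itga7*.

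Of 38 genes of the contractile apparatus, 25 passed the filter on low counts, and 11 were called higher in S9-SCA-1+ and 1 in S9-JAG1+ cells (median 1.01). *Mybpc1* (chr10:88518279-88605229), a myosin binding protein, stood out with 111 and 110 CPM in S9-SCA-1+ and 0.257, 0.0838 and 0.317 CPM in S9-JAG1+ libraries. *Tpm2* (tropomyosin) had 176 and 179 CPM against 18.8, 18.6 and 19.2 CPM, and *Des* (desmin) 12.4 and 15 CPM against 3.94, 1.30 and 1.51 CPM. The genes of acetylcholine receptor subunits did not move as one. *Chrnb1*, *Chrnd* and *Chrng* were called on the S9-SCA-1+ side, at 0.712 to 4.17 CPM, whereas *Chrna1* had 0.245 and 0.534 CPM there and 7.36, 6.37 and 6.58 CPM in S9-JAG1+ libraries (-4.11 ± 0.42, adjusted p = 3.35e-06). The calls of *Ttn* and *Mylpf* were each lost in 4 of the 8 alternatives they were run under, and the embryonic myosin *Myh3* stood below 0.3 CPM in all 5 libraries.

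**Figure D3:**
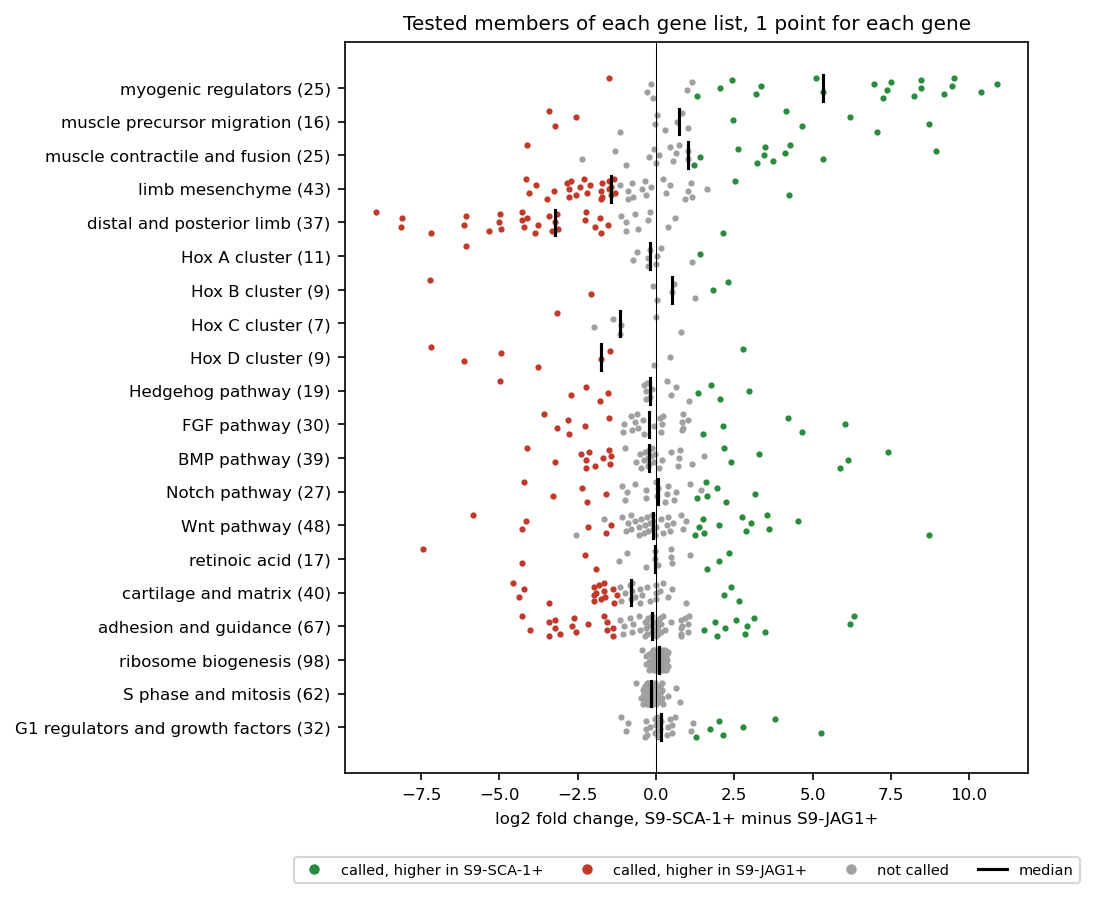
Log2 fold change (S9-SCA-1+ minus S9-JAG1+) of the tested members of each gene list, 1 point for each gene, with the number of tested members in brackets and a bar at the median. Myogenic regulators have their median at 5.33 and distal and posterior limb genes at -3.22, whereas genes of ribosome biogenesis and of S phase and mitosis crowd around 0 with no call.

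Limb mesenchyme genes lay lower in S9-SCA-1+ cells. Of 43, all tested, 24 were called higher in S9-JAG1+ and 2 in S9-SCA-1+ cells (median -1.44). Of the 24 calls, those of *Pkdcc* and *Hic1* were each lost in 4 of the 8 alternatives they were run under. The calls of *Pax1* and *Dlx6* were each lost in 2, and those of *Tbx3* and *Hand1* in 1. *Tbx5*, the T-box gene that starts forelimb outgrowth, had 23.9 and 14.8 CPM in S9-SCA-1+ and 181, 193 and 184 CPM in S9-JAG1+ libraries (-3.27 ± 0.17, adjusted p = 1.23e-08). *Lhx9*, *Lmx1b*, which specifies the dorsal mesenchyme, and *Tbx15* followed the same pattern, with log2 fold changes of -2.54, -2.76 and -3.49. These genes were not absent from S9-SCA-1+ cells: *Prrx1* had 223 and 164 CPM there, 469, 422 and 402 CPM in S9-JAG1+ cells and means of 1361 and 850 CPM in S9-Pαhi and S9+Pαhi cells. Of the 43 genes, 32 were higher in S9-SCA-1+ replicate 2 than in replicate 3. The 2 genes in the other direction were *Osr1*, a zinc finger gene of irregular connective tissue (37.7 and 30.9 CPM against 2.05, 1.55 and 1.74 CPM), and *Zeb2* (20.4 and 22.3 CPM against 2.97 to 4.28 CPM). Without S9-JAG1+ replicate 1 there were 5 in that direction.

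Of 37 distal and posterior limb genes, all tested, 27 were called higher in S9-JAG1+ cells, with a median of -3.22. *Jag1*, whose difference the sort fixed, is among the 27. The 1 call in the other direction, *Lin28a*, was lost without any of 4 of the 5 libraries, and remained without S9-JAG1+ replicate 1. *Wnt5a*, a Wnt of the distal tip from the mesenchyme list, had 573, 550 and 660 CPM in S9-JAG1+ and 38.1 and 28.3 CPM in S9-SCA-1+ libraries. *Cyp26b1*, which degrades retinoic acid, had 850, 789 and 861 CPM against 47.4 and 38.7 CPM, and *Hand2*, an activator of *Shh*, 353, 401 and 430 CPM against 23.1 and 17.3 CPM. *Sall1*, *Ets2* and *Grem1*, the BMP antagonist of the signalling feedback loop, had log2 fold changes of -3.85, -3.42 and -3.22. Several genes of the list differed less. *Hoxa11* and *Hoxa10* had log2 fold changes of -0.27 and -0.20, and the FGF targets *Etv4* and *Etv5* of -0.65 and -0.58.

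The Hox clusters A and D divided at different places. In the HoxA cluster the genes from *Hoxa3* to *Hoxa11* had log2 fold changes between -0.73 (*Hoxa6*) and 0.15 (*Hoxa7*) without a call, and *Hoxa13* stood at -6.05. *Hoxa9*, for example, had 218 and 220 CPM in S9-SCA-1+ and 208, 225 and 203 CPM in S9-JAG1+ libraries. In the HoxD cluster the difference grew gene by gene: -1.47 for *Hoxd8*, -1.74 for *Hoxd9*, -3.78 for *Hoxd10*, -4.94 for *Hoxd11*, -6.14 for *Hoxd12* and -7.19 for *Hoxd13*. *Hoxd3* and *Hoxd4* were not called, and *Hoxd1* was higher in S9-SCA-1+ cells, with 3.43 and 4.17 CPM against 0.342, 0.419 and 0.872 CPM (2.78 ± 0.56). S9-SCA-1+ cells thus held *Hoxa11* at 271 and 243 CPM, close to the 293, 336 and 299 CPM of S9-JAG1+ cells, together with *Hoxd11* at 22.4 and 18.8 CPM against 614, 630 and 653 CPM.

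In the HoxB cluster, *Hoxb2* was called higher in S9-SCA-1+ cells (22.0 and 23.3 CPM against 3.73 to 5.48 CPM). The other calls there, *Hoxb4*, *Hoxb9* and *Hoxb1*, were lost when single libraries were left out, and *Hoxb1* had counts in S9-JAG1+ replicate 3 alone. *Hoxc8* was the HoxC gene called (0.420 and 0.214 CPM against 6.08, 0.964 and 1.66 CPM in S9-JAG1+ libraries). *Hoxb3* to *Hoxb8* without *Hoxb4*, and *Hoxc4*, *Hoxc5* and *Hoxc6*, were lower in both populations than in the other E10.5 populations.

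**Figure D4:**
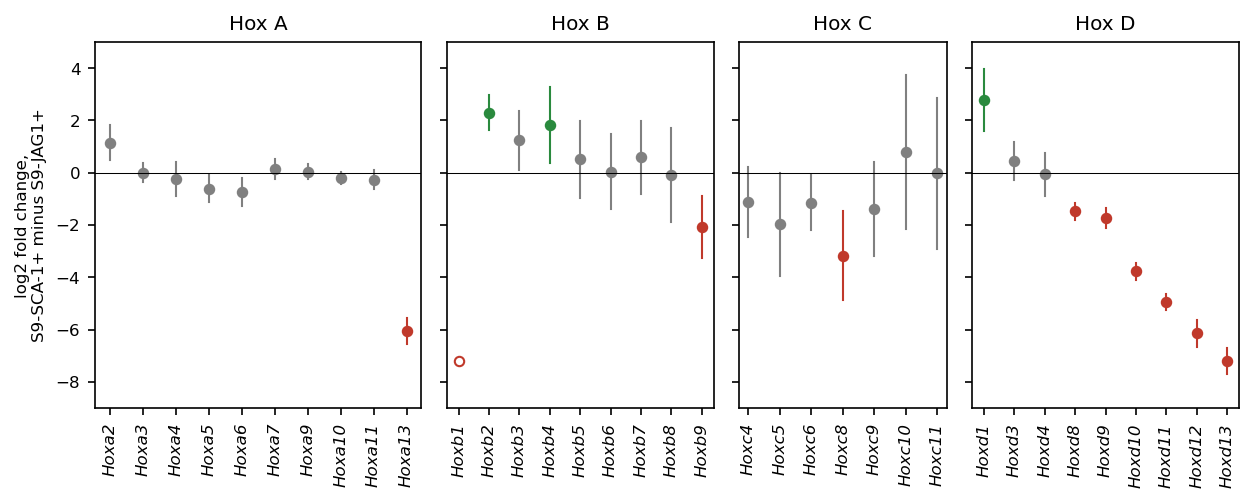
Log2 fold change of tested Hox genes in cluster order with 95% intervals (green, called higher in S9-SCA-1+; red, called higher in S9-JAG1+; grey, not called; open circle, no standard error could be estimated). HoxA genes stay near 0 up to *Hoxa11* and fall at *Hoxa13*, whereas HoxD genes fall step by step from *Hoxd8* to *Hoxd13*.

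Of 19 tested genes of the Hedgehog pathway, 4 were called higher in S9-SCA-1+ and 5 in S9-JAG1+ cells, against 6.53% and 4.91% of all tested genes. *Shh* itself had 54.1, 62.3 and 74.3 CPM in S9-JAG1+ and 1.64 and 2.42 CPM in S9-SCA-1+ libraries (-4.97 ± 0.23, adjusted p = 3.36e-09). Its transcriptional targets *Ptch1* (203, 209 and 245 CPM against 64.3 and 61.4 CPM) and *Gli1* were called on the same side, with log2 fold changes of -1.80 and -1.54. The co-receptor *Boc* was higher in S9-SCA-1+ cells (186 and 183 CPM against 48.8, 61.4 and 53.3 CPM), as was *Hhip*, which binds the ligand (10.8 and 8.33 CPM against 1.58 to 3.6 CPM). The calls of *Cdon* and *Scube2* were lost without S9-JAG1+ replicate 3, and that of *Scube2*, which had 8 counts against 1 (ratio 10.2, 95% counting interval 1.37 to 454), also without S9-SCA-1+ replicate 2. *Smo*, the signal transducer, differed by -0.19 ± 0.10.

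In the FGF pathway, 5 of 30 tested genes were called higher in S9-SCA-1+ and 6 in S9-JAG1+ cells. The ligands took both directions. *Fgf5* had 7.03 and 6.23 CPM in S9-SCA-1+ and 0.214, 0.0838 and 0 CPM in S9-JAG1+ libraries, and *Fgf9* 12.4 and 12.2 CPM against 0.599 to 0.712 CPM. *Fgf10*, the mesenchymal FGF that keeps the apical ridge active, had 91.9, 92.6 and 103 CPM in S9-JAG1+ against 13.9 and 13.8 CPM in S9-SCA-1+ libraries. The feedback inhibitors also split: *Spry1* (133, 126 and 149 CPM against 11.1 and 11.8 CPM), *Spry4* and *Dusp6* were higher in S9-JAG1+ cells, and *Dusp4* was higher in S9-SCA-1+ cells (228 and 171 CPM against 65.4, 67.2 and 77.2 CPM).

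Of 39 genes of the BMP pathway, all tested, 11 were called higher in S9-JAG1+ and 6 in S9-SCA-1+ cells. *Bmp2*, *Bmp4* and *Bmp7* had log2 fold changes of -4.10, -2.24 and -1.94, and *Bmp4* had 94.5, 101 and 102 CPM against 22.3 and 19.7 CPM. Antagonists took both directions. *Grem1* and the pseudoreceptor *Bambi* (68.1, 69.6 and 67.8 CPM against 15.4 and 15.7 CPM) were higher in S9-JAG1+ cells. *Fst* (follistatin) had 8.92 and 8.94 CPM in S9-SCA-1+ and 0.0428, 0.0838 and 0.238 CPM in S9-JAG1+ libraries, and *Nog* (noggin) was also called there, at 8.15 and 6.98 CPM against 1.07 to 1.76 CPM. *Mstn* (myostatin), which restrains muscle growth, had 2.83 and 3.56 CPM from 181 counts against 1. The receptor *Bmpr1b* was higher in S9-SCA-1+ cells (43.9 and 46.9 CPM against 3.98 to 5.11 CPM), while *Bmpr1a* and *Smad4* were alike. Of the ID genes, targets of BMP signalling, *Id2* was higher in S9-SCA-1+ cells (265 and 300 CPM against 54.9, 69.8 and 61.7 CPM) and *Id1* in S9-JAG1+ cells (81.8, 106 and 106 CPM against 33.2 and 37.5 CPM).

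Of 27 tested genes of the Notch pathway, 6 were called higher in S9-SCA-1+ and 5 in S9-JAG1+ cells. The 5 include *Jag1*, whose difference the sort fixed, and the other 4 were *Dll3*, *Hes7*, *Hey1* and *Hey2*, with the call of *Dll3* lost without S9-SCA-1+ replicate 3. Targets of Notch took both directions. *Hey1* had 183, 161 and 202 CPM in S9-JAG1+ and 33.0 and 38 CPM in S9-SCA-1+ libraries (-2.36 ± 0.17, adjusted p = 2.59e-07), and *Heyl* 3.15 and 2.85 CPM in S9-SCA-1+ against 0.251 to 0.396 CPM in S9-JAG1+ libraries. *Hes1* and *Rbpj*, the DNA-binding partner of Notch, differed by 0.05 ± 0.17 and 0.07 ± 0.14. The ligand *Dll1* had 7.94 and 7.69 CPM in S9-SCA-1+ libraries and 0.3, 0.293 and 8.05 CPM in S9-JAG1+ replicates 1, 2 and 3, so that the populations overlapped through replicate 3 alone and no call was made.

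In the Wnt pathway, 12 of 48 tested genes were called higher in S9-SCA-1+ and 6 in S9-JAG1+ cells. *Wnt16* had 47.0 and 38.3 CPM in S9-SCA-1+ and 0.0428, 0.0838 and 0.159 CPM in S9-JAG1+ libraries (8.72 ± 0.59, adjusted p = 5.53e-10). The R-spondin receptors *Lgr5* (45.5 and 37.1 CPM against 1.37, 2.05 and 1.86 CPM) and *Lgr4* (96.5 and 107 CPM against 33.9 to 39.7 CPM) lay on the same side. Their ligand *Rspo3* was higher in S9-JAG1+ cells (33.7, 39.5 and 46.0 CPM against 2.52 and 1.53 CPM). The nuclear factor *Tcf7* and the intracellular inhibitor *Axin1* were alike. Of 17 tested retinoic acid genes, 3 were called higher in S9-SCA-1+ and 4 in S9-JAG1+ cells. *Stra6*, which takes up retinol, was higher in S9-SCA-1+ cells (1.62 ± 0.17), and the receptor *Rarg* (227, 213 and 210 CPM against 63.6 and 52.0 CPM) and *Cyp26b1* in S9-JAG1+ cells.

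Surface and matrix genes differed in both directions. Of 67 tested genes of adhesion and guidance, 11 were called higher in S9-SCA-1+ and 16 in S9-JAG1+ cells. *Itga4*, an integrin of migrating cells, had 232 and 284 CPM in S9-SCA-1+ and 2.95, 3.35 and 3.37 CPM in S9-JAG1+ libraries, and *Itga8* 3.85 and 3.17 CPM against 55.6, 59.2 and 54.6 CPM. The guidance ligands *Slit2* (239 and 222 CPM against 28.1 to 34.4 CPM) and *Slit3* (23.8 and 16.5 CPM against 196 to 224 CPM) went opposite ways. Of 40 tested cartilage and matrix genes, 16 were called higher in S9-JAG1+ and 3 in S9-SCA-1+ cells. *Sox5* and *Sox6*, partners of SOX9, were higher in S9-JAG1+ cells (-1.98 and -1.90). *Col2a1*, the collagen of cartilage, went the other way, with 168 and 159 CPM in S9-SCA-1+ against 23.2, 31.0 and 23.7 CPM in S9-JAG1+ libraries (2.66 ± 0.26, adjusted p = 2.67e-06), and a mean of 989 CPM in S9+Pαhi cells.

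The genes of ribosome biogenesis were among those alike in both. Of 98, all tested, 76 were alike and none was called (median 0.10; 6 and 3 had an adjusted p of at most 0.1 for S9-SCA-1+ and S9-JAG1+ cells, against 16.2% and 15% of all genes). The nucleolar protein genes *Ncl* and *Nolc1* differed by 0.08 (95% interval -0.16 to 0.31) and 0.07 (-0.13 to 0.28).

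Genes of S phase and mitosis differed little in level. Of 62, all tested, 39 were alike and none was called, with 16 at an adjusted p of at most 0.1 for S9-JAG1+ and 3 for S9-SCA-1+ cells (median -0.17). *Mcm2*, a subunit of the replicative helicase, had 421 and 411 CPM in S9-SCA-1+ and 538, 560 and 532 CPM in S9-JAG1+ libraries (-0.39 ± 0.10, adjusted p = 0.0104), and *Ccne1* (cyclin E) 208 and 228 CPM against 139, 147 and 128 CPM (0.66, adjusted p = 0.00187). Regulators of G1 and growth factors showed 7 calls among 32, all higher in S9-SCA-1+ cells. *Cdkn1a*, an inhibitor of cyclin-dependent kinases, had 62.7 and 64.3 CPM against 1.88, 1.38 and 1.66 CPM (5.27 ± 0.32, adjusted p = 1.89e-08), and *Myc* 144 and 157 CPM against 13.2, 9.34 and 9.91 CPM. *Cdk4* and *Ccnd2* were alike.

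The populations were also compared together with S9-Pαhi and S9+Pαhi cells, to ask which features they share. In that contrast, 102 genes (0.674%) were called higher and 401 (2.65%) called lower in both, with all 5 libraries beyond all 6 of the other E10.5 populations. Without the limit on the fold change, the genes common to S9-SCA-1+ and S9-JAG1+ against the other E10.5 populations were 905 higher and 1027 lower, a far more even split. Of the 102, 40 also differed between S9-SCA-1+ and S9-JAG1+ cells, 30 of them higher in S9-SCA-1+ cells, and of the 401, 92 did so, 37 of them higher in S9-SCA-1+ cells. A gene that both share can thus still separate them.

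Of 27 tested genes of the Notch pathway, 3 were higher in both and 2, *Dlk1* and *Maml2*, lower in both, with a median of -0.02 in this contrast. *Nrarp*, a feedback inhibitor that Notch induces, had 16.1 and 18.7 CPM in S9-SCA-1+ and 30.9, 32.7 and 39.3 CPM in S9-JAG1+ libraries, against 2.07 to 3.49 CPM in S9-Pαhi and 2.84 to 4.99 CPM in S9+Pαhi libraries (log2 fold change of both minus the others 2.96 ± 0.16, adjusted p = 1.59e-08). *Hey1* was higher in both, with 12.8 to 25.1 CPM in the other 6 libraries (2.29 ± 0.12), as was *Lfng*, a glycosyltransferase that modifies Notch receptors (3.74 ± 0.23). *Lfng* was also called higher in S9-SCA-1+ than in S9-JAG1+ cells. It is not among the leading genes, which need a mean of at least 1 log2 CPM. *Hoxa11* was also common to both (1.49 ± 0.11), with means of 148 CPM in S9-Pαhi and 67.7 CPM in S9+Pαhi cells. Further leading genes were the collagen *Col13a1*, the protease *Adamts17*, *Nav2*, the phospholipase *Plcg2* and the retinol binding protein *Rbp4*, with log2 fold changes of 3.65, 3.15, 2.86, 2.52 and 2.36, all of them with both S9-SCA-1+ libraries above the 3 S9-JAG1+ libraries. *Rcsd1* was the reverse, with 4.13 and 3.56 CPM in S9-SCA-1+, 41.6, 44.5 and 49.3 CPM in S9-JAG1+ and 1.62 to 3.14 CPM in the other libraries. The carbonic anhydrase *Car2*, also of red blood cells, had 3.71 and 28.9 CPM in S9-SCA-1+ replicates 2 and 3, the first of which also held fewer counts of globin genes, and *Gcnt4* had a log2 fold change of 2.31.

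Among the leading genes lower in both were the transcription factors *Emx2*, *Gsc*, *Ebf2*, *Hic1* and *Hoxc5*, beside genes of receptors and of signalling. *Emx2*, a homeobox gene needed for the scapula, had 0.595 and 0.605 CPM in S9-SCA-1+, 0.942, 0.922 and 0.436 CPM in S9-JAG1+, 12.7 to 18.3 CPM in S9-Pαhi and 48.8 to 51.1 CPM in S9+Pαhi libraries (-5.33 ± 0.36, adjusted p = 3.67e-08). *Gsc* and *Ebf2* followed, at 1.26 to 1.61 CPM in S9-SCA-1+ and 3.69 to 9.89 CPM in S9-JAG1+ libraries, with log2 fold changes of -3.89 and -3.90. The angiotensin receptor *Agtr2*, *Plcl1*, *Syt13* and *Slitrk6* had an adjusted p above 0.1 between the populations, and log2 fold changes against the others of -4.29, -4.38, -3.65 and -3.57. *Hic1*, *Hoxc5* and the Wnt agonist *Rspo1* completed the leading genes. *Rspo1* spread widely among S9-JAG1+ libraries (2.18, 1.47 and 0.159 CPM).

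**Figure D5:**
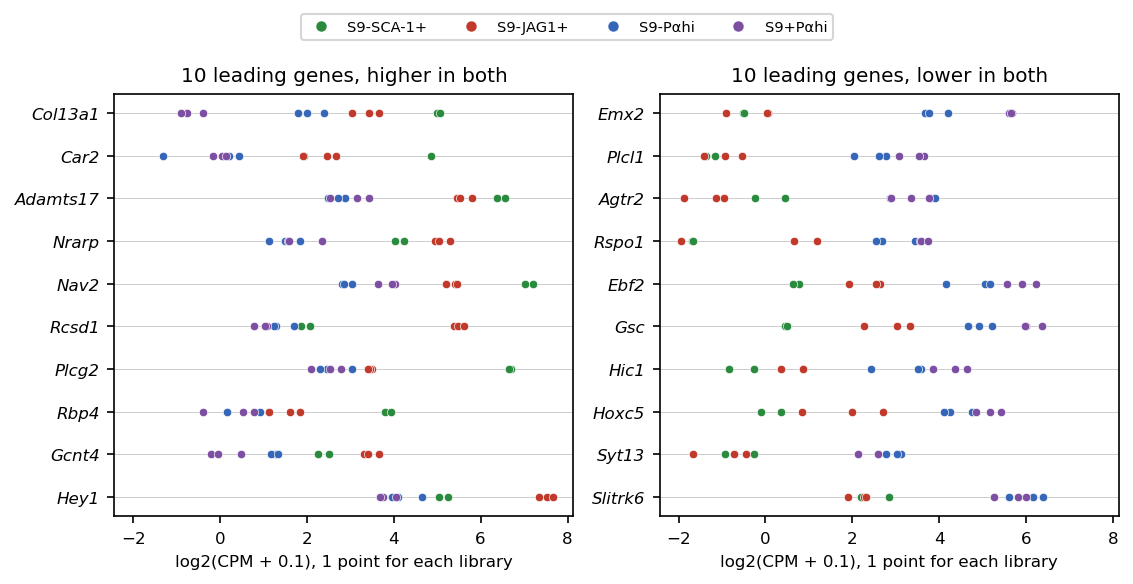
Level of the 10 leading genes higher in both populations (left) and lower in both (right) in each E10.5 library, as log2(CPM + 0.1). The 5 libraries of S9-SCA-1+ (green) and S9-JAG1+ (red) lie on 1 side of the 6 libraries of S9-Pαhi (blue) and S9+Pαhi cells (violet) for every gene, as the choice requires, and on the left the green and red points are apart for all but *Car2*.

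Of the lists, limb mesenchyme held 15 genes lower in both, among them *Shox2* (52.4 and 33.3 CPM in S9-SCA-1+ and 93.9, 78.8 and 65.9 CPM in S9-JAG1+ libraries, against means of 503 and 732 CPM), *Tbx18*, *Irx3*, *Meis1* and *Meis2*. By the adjusted p alone, 35 of its 43 genes were lower in the average of both populations, against 24.0% of all tested genes. That count does not require each population to be lower. Like *Shox2*, *Fgfr2* was lower in both (15.6 and 11.9 CPM in S9-SCA-1+, 24.4, 18.3 and 11.9 CPM in S9-JAG1+, means of 91.2 and 108 CPM). Genes of ribosome biogenesis were slightly higher in the average of both, with a median of 0.50. An adjusted p of at most 0.1 was reached by 94 of 98, against 21.7% of all tested genes. None reached the fold limit with its libraries apart. *Ncl* had 1944 and 2210 CPM in S9-SCA-1+ and 1939, 2026 and 1941 CPM in S9-JAG1+ libraries, against means of 1454 and 1115 CPM (0.67 ± 0.07).

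Where a gene differed between the populations, the other E10.5 cells could lie with either. Of the 987 genes higher in S9-SCA-1+ cells, the mean log2 level of S9-Pαhi and S9+Pαhi cells was nearer to S9-JAG1+ cells for 613 and nearer to S9-SCA-1+ cells for 374. For the 742 genes higher in S9-JAG1+ cells it was nearer to S9-JAG1+ cells for 429 and nearer to S9-SCA-1+ cells for 313. *Pax3* and *Met* are of the first kind, with 0.362 to 1.19 CPM and 3.44 to 6.69 CPM in the 6 other libraries, and *Hoxa13*, with 1.05 to 4.84 CPM in the 6 other libraries, is a gene for which these lay nearer to S9-SCA-1+ cells.

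Markers of other cell types reached different levels. The summed level of 12 erythroid genes was 143 and 4036 CPM in S9-SCA-1+ replicates 2 and 3, and 37.0, 53.5 and 5.23 CPM in S9-JAG1+ replicates 1 to 3. Of 11 tested, 10 were called with higher levels in S9-SCA-1+ cells, and 1 was without S9-SCA-1+ replicate 3. *Hbb-y*, an embryonic globin, had 40.7 CPM in S9-SCA-1+ replicate 2 and 1125 CPM in replicate 3. The 17 endothelial genes summed to 281 and 267 CPM in S9-SCA-1+ and 87.7 to 99.8 CPM in S9-JAG1+ libraries, most of it from *Ets1* (234 and 215 CPM against 59.8 to 66.9 CPM), a factor that is not particular to endothelium. The defining markers *Pecam1* and *Cdh5* were at or below 1.23 CPM in all 5 libraries, and *Kdr* had 6.08 and 10.9 CPM in S9-SCA-1+ against 0.251 to 1.35 CPM in S9-JAG1+ libraries. The 10 pericyte and smooth muscle genes summed to 606 and 518 CPM in S9-SCA-1+ and 557 to 654 CPM in S9-JAG1+ libraries, with most of it from *Notch3* (494 and 432 CPM against 316 to 372 CPM) and *Pdgfrb* (100.2 and 75.0 CPM against 213 to 261 CPM), which mesenchyme also expresses. The defining smooth muscle marker *Acta2* was at or below 3.90 CPM in all 5. The 11 tendon and connective tissue genes, of which *Hoxa11*, *Tbx5* and *Osr1* are also genes of limb mesenchyme, summed to 785 and 786 CPM against 841 to 936 CPM. The 13 leukocyte genes summed to at most 10.7 CPM, the 18 ectodermal genes to at most 15.2 CPM, and the 13 glial and 13 neuronal genes to at most 25.6 and 27.7 CPM. *Krt5*, *Krt14*, *Cdh1* and *Sox10* stood at or below 0.28 CPM.

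Of 13 tested somite and presomitic genes, 4 were called higher in S9-SCA-1+ and 5 in S9-JAG1+ cells, against 6.53% and 4.91% of all tested genes. The list summed to 176 and 147 CPM in S9-SCA-1+ and 53.4 to 99.1 CPM in S9-JAG1+ libraries, below the 196 to 407 CPM of the other E10.5 libraries. *Tcf15* (paraxis), a gene of the somite epithelium, had 83.3 and 68.5 CPM in S9-SCA-1+ and 3.51, 4.02 and 4.76 CPM in S9-JAG1+ libraries, and *Dmrt2*, of the dermomyotome, 18.2 and 18.1 CPM against 0.0396 to 0.168 CPM. *Uncx*, of the posterior sclerotome, had 8.57 and 6.09 CPM and no count in the S9-JAG1+ libraries, at least 177-fold higher at a floor of 3 counts over the group. *Pax1*, of the sclerotome and girdle, was at 0.595 and 0.855 CPM in S9-SCA-1+ and 6.42, 19.2 and 10.7 CPM in S9-JAG1+ libraries, and its call was lost without either S9-SCA-1+ library.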

How the data were processed

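Poly(A) RNA from sorted populations of pooled forelimb buds was sequenced, and the authors used STAR to align reads to mm10, a mouse genome build, and counted them per gene with QuasR, according to the methods of the study. The table they deposited holds raw counts per gene, not normalized. The version of the aligner and the use of strand in counting are not given in the sources used here. Samples were grouped by the population in their labels.

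From these counts, edgeR 4.0.16 in R 4.3.3 was used for TMM scaling, the filter filterByExpr by population and a quasi-likelihood fit with 1 mean for each of 5 populations over all 14 libraries. Genes were called at a Benjamini-Hochberg adjusted p of at most 0.1 over all 15125 tested genes and a log2 fold change of 1.2 or more in size. A gene was alike where the 95% interval of its log2 fold change lay inside ±0.5, which could not be judged for 152 genes without an estimable standard error. A gene was common to both populations where the contrast of their average against that of S9-Pαhi and S9+Pαhi cells was called and all 5 libraries lay beyond all 6. Mean log2 CPM levels used a prior count of 2, and fold changes were fitted with edgeR's default prior count. The dispersion common to all genes corresponded to a coefficient of variation of 13.4%. Intervals of ratios of counts cover counting error only.

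The leading genes were the 15 in each direction with the largest fold change among called genes with libraries apart and a mean of at least 1 log2 CPM, and the 10 in each direction of the common genes. Other genes named belong to gene lists, chosen mainly for their change or level. The members and lists were chosen with earlier results of these data known. Pairs of libraries of a population differed by more than sampling noise, so each library was counted once. The procedure was tested on simulated data. Alternatives were other scalings, filters, tools and limits, a replicate block, and leaving out each E10.5 library. The libraries of S9-Pαhi and S9+Pαhi cells were left out for the common genes alone. Some genes are not reported here.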

Additional observations from a re-analysis of the deposited data

How the results depend on the processing

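Without a limit on the fold change, genes different between S9-SCA-1+ and S9-JAG1+ numbered 4723 in place of 1729 (2451 higher in S9-SCA-1+ and 2272 in S9-JAG1+ cells), and genes common to S9-SCA-1+ and S9-JAG1+ against the other E10.5 populations 1932 in place of 503 (905 higher and 1027 lower, in place of 102 and 401), since the limit removes small differences by construction. With the interval inside 0.3 in place of 0.5, genes alike in S9-SCA-1+ and S9-JAG1+ numbered 1678 in place of 5536. Leaving out single libraries gave 1515 to 1746 different, 500 to 614 common and 3972 to 4984 alike genes. The replicate block gave 1746, 497 and 5402 genes. The labels do not say whether shared replicate numbers pair the libraries. The deviations of replicates 2 and 3 correlated at -0.295 between the populations over 9757 genes. This cannot decide the question, since each population gives only the difference between replicates 2 and 3. The DESeq2 Wald test called 1714 different and 501 common genes. The leading genes and the sorting genes *Ly6a*, *Jag1*, *Sox9* and *Pdgfra*, 54 in all, kept their direction and call in 432 checks. The leading genes had been chosen from these libraries for a large difference, which makes a kept call likely. For the common genes, the checks did not ask again whether the libraries lay apart. Of 247 called list members, 198 kept their call in all 8 alternatives run for them. Of 496 checks of list counts, 35 moved by over 1.5 times, mostly counts of 1 or 2. The erythroid count fell from 10 to 1 without S9-SCA-1+ replicate 3, the limb mesenchyme count higher in S9-SCA-1+ cells went from 2 to 4 with the replicate block, and the stress genes higher in S9-SCA-1+ cells numbered 4 without its replicate 2 and 0 without its replicate 3. With 2 and 3 libraries, and 3 counts at 0.105 to 0.128 CPM, changes of weakly expressed genes could not be measured closely.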

Other observations

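The 7 genes called among 32 G1 regulators and growth factors included *Cdkn1c*, *Igf1*, *Igfbp2* and *Igfbp3*, while *Cdkn1b*, *Cdkn2c*, *Cdkn2d*, *Igf2*, *Igf1r*, *Igf2r*, *Igfbp4* and *Igfbp5* were not called. *Cdkn1c*, an inhibitor of cyclin-dependent kinases, had 684 and 678 CPM in S9-SCA-1+ and 293, 274 and 279 CPM in S9-JAG1+ libraries (log2 fold change 1.27 ± 0.11, adjusted p = 7.08e-07 by edgeR's quasi-likelihood test, Benjamini-Hochberg adjusted over all tested genes). The binding proteins *Igfbp2* (186 and 168 CPM against 55.3, 52.5 and 53.5 CPM) and *Igfbp3* (31.3 and 24.0 CPM against 4.75, 3.27 and 4.16 CPM) were called in the same direction. *Igf1* was called as well, with 27.2 and 22.0 CPM against 12.2, 3.52 and 2.73 CPM, and lay below the other E10.5 populations in both. S9-JAG1+ replicate 1 held the most *Igf1* of its group. *Cdk6*, which drives entry into S phase, had 164, 153 and 178 CPM in S9-JAG1+ and 82.9 and 70.8 CPM in S9-SCA-1+ libraries, a log2 fold change of -1.10 short of the limit for a call.

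Tendon and connective tissue genes did not move as one, with 3 of 10 tested called in each direction. On the S9-SCA-1+ side, the calls of *Egr1* and *Egr2* were lost without S9-SCA-1+ replicate 3, and that of *Osr1* was kept. *Mkx*, a regulator of tendon cells, had 16.2, 17.4 and 18.0 CPM in S9-JAG1+ and 5.98 and 5.73 CPM in S9-SCA-1+ libraries. *Scx* (scleraxis), the early tendon factor, had 29.3 and 26.9 CPM in S9-SCA-1+ and 16.3, 18.3 and 14.1 CPM in S9-JAG1+ libraries, without a call. It was lower in both than in the other E10.5 populations. *Rgs5*, a pericyte gene, had 7.92, 8.21 and 7.25 CPM in S9-JAG1+ against 0.734 and 0.499 CPM in S9-SCA-1+ libraries. The stress genes *Hspa1a*, at 2.66 and 35.9 CPM, and *Egr1*, at 52.5 and 130 CPM, were higher in S9-SCA-1+ replicate 3 than in replicate 2.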
